A study of Homo sapiens with 6 samples.

Results

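RELN, which codes for the secreted glycoprotein reelin, was examined together with the genes of its receptors VLDLR and LRP8 (also called ApoER2) and of the intracellular adaptor DAB1. The 4 genes were taken by name from an expression table of 12385 genes, and all of their transcripts from a table of 40304 transcripts. RELN was chosen for its difference between the groups compared here, so its values are given as a description, without a test. RELN and LRP8, 2 of the 4 genes, had a row in the gene table and 8 rows in the transcript table. VLDLR and DAB1 were not analysed here.

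The comparison asks which RNAs change when HOXD9 is overexpressed in MKN-74, an established epithelial-like line of human gastric cancer. LV-HOXD9 cells (3 libraries) had been infected with a lentivirus that carries HOXD9, a homeobox transcription factor, and LV-Vector cells (3 libraries, genotype given as WT) with the same lentivirus lacking the insert. Both were selected with puromycin at 10 μg/ml for more than 14 days, so cells of both groups carried the resistance gene of the vector. The libraries are described as biological replicates, but nothing says that they came from separate infections, and the p-values measure only the spread between these libraries. Levels are FPKM, fragments per kilobase of transcript scaled to the mapped fragments of a library, as deposited. Differences are LV-HOXD9 minus LV-Vector on the log2(FPKM + 1) scale, which understates the change of low genes. The depth of the libraries is unknown because the tables hold no counts, so no interval for counting error is given.

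Reelin is best known from the developing cerebral cortex, where neurons secrete it and migrating neurons respond by settling in layers. It binds the extracellular part of VLDLR and LRP8, members of the lipoprotein receptor family, and DAB1 docked on their tails is then phosphorylated by the Src-family kinases SRC and FYN. Phosphorylated DAB1 recruits CRK adaptors and phosphatidylinositol 3-kinase and is finally removed by a CUL5 ubiquitin ligase with SOCS7. The receptors also take up other ligands such as apolipoprotein E, and they are cut by shedding proteases and γ-secretase.

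HOXD9 was measured at 26.6, 26.4 and 31.3 FPKM in LV-HOXD9 libraries, against 0, 0.0413 and 0.0309 FPKM in LV-Vector libraries. Every LV-HOXD9 library was high, in accordance with its label, although RNA of the insert and of the endogenous gene are counted together. The epithelial markers EPCAM, CDH1, KRT8, KRT18, KRT19, CLDN4 and ELF3 were measured in full (7 of 7), with a summed level of 978 to 1005 FPKM in LV-HOXD9 libraries and 826 to 936 FPKM in LV-Vector libraries. The keratin genes KRT8, KRT18 and KRT19 made up most of this sum and had positive differences (0.14 to 0.31), while the other 4 markers had negative ones (-0.52 to -0.02). Of the leukocyte markers, LYZ, lysozyme, was measured at 1.72, 1.71 and 1.24 FPKM in LV-HOXD9 libraries, against 2.93, 2.95 and 2.71 FPKM in LV-Vector libraries. The defining markers PTPRC and CD3E were not analysed here. Of the 6 neuron markers, TUBB3 and GAD1 were measured, with a sum of 16.3 to 18.9 FPKM in LV-HOXD9 libraries and 14.1 to 15.2 FPKM in LV-Vector libraries, and they lay on opposite sides without overlap. GAD1, an enzyme of GABA synthesis, was measured at 2.32, 2.46 and 2.75 FPKM in LV-HOXD9 libraries, against 3.15, 4.02 and 3.39 FPKM in LV-Vector libraries (-0.36, adjusted p = 0.172, limma). TUBB3, a tubulin, had a ratio of 1.34 between the mean FPKM of LV-HOXD9 and LV-Vector cells (0.39, adjusted p = 0.116, limma). RBFOX3 and SNAP25 were not analysed here. Their part in the levels of RELN and LRP8 was not tested. The libraries also differed in a trend with GC content. Across 12054 genes the rank correlation of a gene's deviation with its GC content was -0.0497, -0.0396 and 0.659 in LV-HOXD9 libraries 1 to 3, against 0.231, -0.601 and -0.295 in LV-Vector libraries 1 to 3. LV-HOXD9 replicate 3 and LV-Vector replicate 2 thus lay farthest apart, and the fits of genes and transcripts were repeated without them.

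RELN, the ligand, lies on the minus strand of chromosome 7 (GRCh37, chr7:103112231-103629963) and carries the identifier ENSG00000189056.13_3. Its level was 1.91, 1.99 and 1.75 FPKM in LV-HOXD9 libraries, against 3.97, 3.89 and 4.10 FPKM in LV-Vector libraries. All 3 LV-HOXD9 libraries were low and the groups did not overlap, the lowest LV-Vector library standing 1.95-fold above the highest LV-HOXD9 library. The mean level was 1.89 ± 0.123 FPKM in LV-HOXD9 cells and 3.99 ± 0.106 FPKM in LV-Vector cells (mean ± SD, n = 3 each), a ratio of 0.473. On the log2(FPKM + 1) scale the difference was -0.79 (SE 0.071), and 40 of 12385 genes had a lower value. This place among all genes comes with the choice of RELN for its difference and is not a test. In the bulk RNA measured here, fewer cells that express a gene cannot be told apart from less RNA per cell.

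The mean of RELN over the 6 libraries stood at percentile 33.3 of all genes, and its pooled SD on the log2(FPKM + 1) scale was 0.0489, a value that belongs to the difference for which it was chosen. The median difference of the 1304 genes within 1.25-fold of its level was -0.0927. The 2 libraries with the steepest trends in GC content were the lowest of their own groups, at 1.75 FPKM for LV-HOXD9 replicate 3 and 3.89 FPKM for LV-Vector replicate 2. Without these 2 libraries the difference on the log2(FPKM + 1) scale was -0.77, and with trends in GC content and length removed it was -0.66. The GC content of the leading RELN transcript was 47.0%, against a median of 49.7% over all genes.

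**Figure D1:**
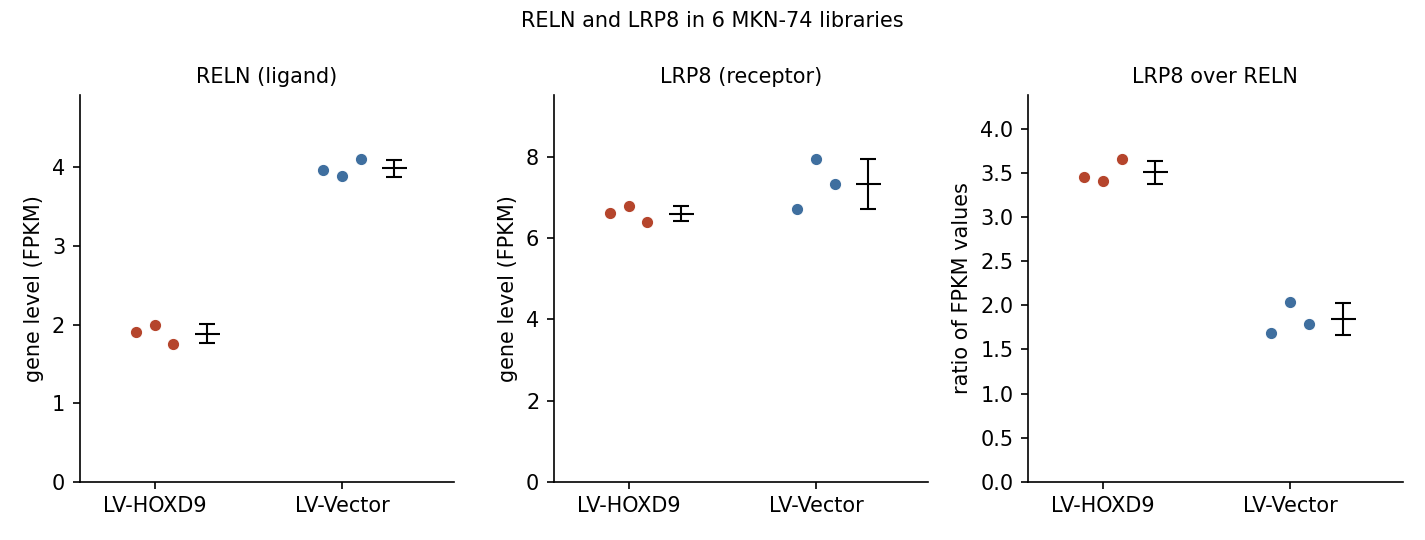
Gene levels in FPKM of RELN and LRP8, and the ratio of both levels, in LV-HOXD9 (red points, left) and LV-Vector libraries (blue points, right); black bars give the mean and SD of 3 libraries. RELN lies between 1.75 and 1.99 FPKM in LV-HOXD9 and between 3.89 and 4.10 FPKM in LV-Vector, whereas the LRP8 values of both groups overlap.

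RELN was read out as 2 transcripts that can hardly be told apart by sequence. RELN-202 and RELN-203 have 65 exons and 11571 bases each, of which 10380 are coding, and they differ at 2 bases. RELN-203 holds a microexon of 6 bases, exon 64 (GRCh38, chr7:103478389-103478394), which codes for 2 amino acids near the end of reelin. As annotated, RELN-202 has another stretch of 6 bases in this place, made in part from an exon of 4 bases that lies 4 bases from the last exon. Whether RNA with this stretch exists in these cells was not tested. RELN-201, not analysed here, joins the flanking exons directly. These sequences are shown because they carry the entire difference between the transcripts (GENCODE release 29, GRCh38, minus strand of chromosome 7, written 5′ to 3′ as in the RNA), with the 6 bases in capitals.
RELN-202: ggaggtcgtcctATTTAGcactcgcaaaca
RELN-203: ggaggtcgtcctAGTAAGcactcgcaaaca
RELN-201: ggaggtcgtcctcactcgcaaaca
Counted from 1 at the first capital, with the base of RELN-202 first and that of RELN-203 last, the differences are T2G and T4A.

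RELN-202 was measured at 1.51, 1.03 and 1.03 FPKM in LV-HOXD9 libraries, against 2.36, 3.77 and 2.61 FPKM in LV-Vector libraries. The groups did not overlap, and the difference was -0.83 on the log2(FPKM + 1) scale (SE 0.196). RELN-203 was measured at 0.571, 1.13 and 0.869 FPKM in LV-HOXD9 libraries, against 1.94, 0.456 and 1.85 FPKM in LV-Vector libraries. Here the groups overlapped, because LV-Vector replicate 2 had the lowest value of all 6 libraries, and the difference of -0.32 had an SE of 0.318. The same library had the highest value of RELN-202. Without LV-HOXD9 replicate 3 and LV-Vector replicate 2 the differences were -0.63 for RELN-202 and -0.66 for RELN-203.

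The sum of both transcripts did not show this scatter. It was 2.08, 2.16 and 1.89 FPKM in LV-HOXD9 libraries, against 4.30, 4.23 and 4.46 FPKM in LV-Vector libraries. Each sum was 1.08 to 1.09 times the gene level of its library, and the means were 2.04 ± 0.135 FPKM in LV-HOXD9 cells and 4.33 ± 0.120 FPKM in LV-Vector cells (mean ± SD, n = 3 each), a ratio of 0.472. The share of RELN-203 in the sum was 27.4%, 52.3% and 45.9% in LV-HOXD9 libraries, and 45.2%, 10.8% and 41.4% in LV-Vector libraries. The shares overlapped between groups and varied more within each group than between the group medians. How reads were divided between the transcripts was not tested, and within their exons they differ only at the 2 bases named.

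**Figure D2:**
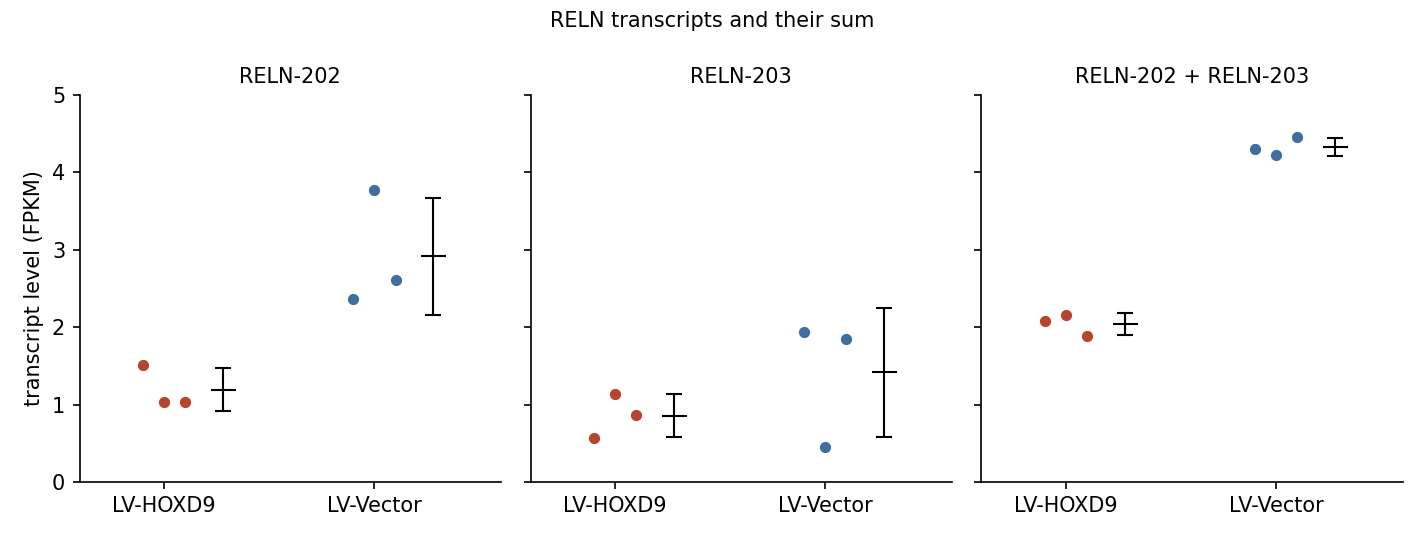
Levels in FPKM of RELN-202, RELN-203 and their sum in LV-HOXD9 (red, left) and LV-Vector libraries (blue, right), with mean and SD of 3 libraries in black. The single transcripts scatter, with LV-Vector replicate 2 at 3.77 FPKM of RELN-202 and 0.456 FPKM of RELN-203, while the sums lie at 1.89 to 2.16 FPKM in LV-HOXD9 and 4.23 to 4.46 FPKM in LV-Vector.

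The genes around RELN were examined by position, which played no role in choosing it. Within 1 Mb on either side the table held 15 other rows, 14 before RELN and 1 after it on chromosome 7. Among all 12385 genes, limma called 18 lower in LV-HOXD9 cells (0.145%) and 7 higher (0.0565%) at an adjusted p under 0.05. The neighbours include POLR2J2, POLR2J3 and UPK3BL1, which have near-identical copies, so their values are uncertain. Of the 15 neighbours limma called 0, with 4 lower (11.9% of all genes) and 1 higher (7.12% of all genes) at an unadjusted p under 0.05, and the ordinary linear model also called 0. The median difference of the neighbours was -0.16 on the log2(FPKM + 1) scale, against -0.044 over all genes. Without LV-HOXD9 replicate 3 and LV-Vector replicate 2 it was -0.083, against -0.020 over all genes, with 0 called at an adjusted p under 0.05, and at an unadjusted p under 0.05 there were 2 lower (8.36% of all genes) and 1 higher (5.84% of all genes). The nearest measured genes were PSMC2, a proteasome ATPase 102388 bases away, and ORC5, a subunit of the origin recognition complex 136824 bases away on the other side. PSMC2 averaged 30.7 ± 1.67 FPKM in LV-HOXD9 cells and 31.1 ± 2.23 FPKM in LV-Vector cells (mean ± SD, n = 3 each), a difference of -0.016 (adjusted p = 0.916, limma). Its sign changed when single libraries were left out. ORC5 averaged 6.74 ± 0.934 FPKM in LV-HOXD9 cells and 7.77 ± 0.660 FPKM in LV-Vector cells (mean ± SD, n = 3 each), with a difference of -0.18 (adjusted p = 0.377, limma). It was -0.089 without LV-HOXD9 replicate 3, -0.062 without LV-Vector replicate 2 as well, and -0.078 with trends in GC content and length removed. Both genes overlapped between groups. The promoter of RELN (RefSeq, GRCh38.p14, chr7:103989609-103989908, from 250 bases before the start to 50 after it) was GC-rich, with 52 CpG and a GC content of 83.3%, against medians of 14 CpG and 58.7% over 35116 promoters. The letters TTTAT, searched on both strands as the core of HOX sites, were found 0 times in this window. They are present in 34.9% of all promoters of this length, which were not matched for GC content. By GC content the window stood at percentile 99.3 of promoters, where stretches of only A and T are few. The 0 matches therefore decide nothing about HOXD9 binding, which was not tested.

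The genes whose levels followed RELN most closely over the 6 libraries were LPIN2 (Pearson r = 0.9982), FZD5 (0.9978), REG1A (0.9972), DDIT4 (0.9966) and THRB (0.9951), out of 10856 genes with a mean of at least 1 FPKM. These values are a description over 6 libraries that share the group difference, their scaling and their GC trends, and 18 genes had r above 0.99. The size of the difference varied widely among them. DDIT4, an inhibitor of the mTORC1 kinase complex, averaged 7.68 ± 0.262 FPKM in LV-HOXD9 cells and 45.3 ± 4.89 FPKM in LV-Vector cells, a difference of -2.41 on the log2(FPKM + 1) scale. THRB, a thyroid hormone receptor, averaged 1.71 ± 0.0859 FPKM in LV-HOXD9 cells and 2.51 ± 0.0485 FPKM in LV-Vector cells, a difference of -0.38. REG1A, a secreted lectin-like protein of the gastrointestinal tract, averaged 9.35 ± 0.178 FPKM in LV-HOXD9 cells and 14.1 ± 0.454 FPKM in LV-Vector cells, a difference of -0.54. LPIN2, a phosphatidate phosphatase, averaged 11.0 ± 0.255 FPKM in LV-HOXD9 cells and 15.8 ± 0.321 FPKM in LV-Vector cells, a difference of -0.49. FZD5, a Wnt receptor, had the smallest difference of the 5, -0.093, at 11.5 ± 0.0371 FPKM in LV-HOXD9 cells and 12.3 ± 0.0466 FPKM in LV-Vector cells (mean ± SD, n = 3 each). With trends in GC content and length removed the differences of THRB and FZD5 were -0.22 and -0.023. LRP8 had r = 0.718 with RELN.

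LRP8, the reelin receptor with a row in the table, lies on the minus strand of chromosome 1 (GRCh37, chr1:53708036-53793742, ENSG00000157193.15_3). Its level was 6.61, 6.79 and 6.40 FPKM in LV-HOXD9 libraries, against 6.72, 7.93 and 7.33 FPKM in LV-Vector libraries. The groups overlapped, since LV-Vector replicate 1 lay below LV-HOXD9 replicate 2. The means were 6.60 ± 0.199 FPKM in LV-HOXD9 cells and 7.33 ± 0.602 FPKM in LV-Vector cells (mean ± SD, n = 3 each), with a difference of -0.13 on the log2(FPKM + 1) scale (SE 0.076, 95% interval -0.31 to 0.050, adjusted p = 0.372, limma). A two-sided exact permutation test gave p = 0.2, where 0.1 is the smallest p that 3 libraries against 3 allow. The difference stayed within -0.21 to -0.021 in all 15 alternative fits, and was smallest with trends in GC content and length removed. Of all genes, 31.7% had a lower difference than LRP8.

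Because RELN was low in LV-HOXD9 cells and LRP8 overlapped between groups, the ratio of both levels differed. LRP8 was 3.45, 3.41 and 3.65 times the FPKM of RELN in LV-HOXD9 libraries, against 1.69, 2.04 and 1.79 times in LV-Vector libraries. The receptor was thus the higher of the pair in every library, and the ratios averaged 3.51 ± 0.129 in LV-HOXD9 cells and 1.84 ± 0.179 in LV-Vector cells (mean ± SD, n = 3 each). The ratio contains RELN and is given without a test. Its size rests on the gene levels, to which the LRP8 transcripts did not add up. LRP8-203 and LRP8-207, described below, together averaged 7.94 FPKM in LV-HOXD9 cells and 7.82 FPKM in LV-Vector cells. These means, of only part of the LRP8 transcripts, already exceeded the LRP8 gene means of 6.60 and 7.33 FPKM. LRP8-201 averaged a further 4.94 FPKM in LV-HOXD9 cells and 5.82 FPKM in LV-Vector cells. The RELN sums, in contrast, were close to their gene levels.

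LRP8 was read out as 6 transcripts, which differ in their exons. LRP8-202, LRP8-203 and LRP8-207 lack an exon of 387 bases that LRP8-201 holds. The tail of LRP8 holds an NPxY docking motif, the site to which the DAB1 family of adaptors binds, and a longer form of the tail holds an insert coded by an exon of 177 bases. In studies of the mouse receptor this insert binds JIP scaffold proteins. The docking stretch was present in the reference sequences of 4 of the 6 transcripts. This does not show that each of them codes for the motif, and LRP8-207 has 1371 coding bases, against 2889 in LRP8-201. In LRP8-201 the insert is exon 18 of 19 (GRCh38, chr1:53249380-53249556). LRP8-202 also holds it, and LRP8-203 and LRP8-207 lack it. The following stretches mark the docking motif and the insert (GENCODE release 29, GRCh38, minus strand of chromosome 1, written 5′ to 3′). Capitals mark the docking motif in the first and the start of the 177-base exon in the second, and the third shows the same place joined to the last exon.
LRP8-201 docking motif: aattttgacAACCCAGTCTACaggaaaaca
LRP8-201: catgtctatcctgcaGCAATCAGCAGCTTT
LRP8-207: catgtctatcctgcacgagtggcattaagc

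LRP8-201, the longest transcript, was measured at 5.05, 4.92 and 4.85 FPKM in LV-HOXD9 libraries, against 5.43, 6.19 and 5.85 FPKM in LV-Vector libraries. The LV-HOXD9 libraries were the lower ones without overlap, but the difference of -0.20 on the log2(FPKM + 1) scale (SE 0.116) did not pass limma over all 40304 transcripts, of which 0.0992% were called (adjusted p = 0.717). LRP8-202 was measured at 0.417, 0.491 and 0.422 FPKM in LV-HOXD9 libraries, against 0.485, 0.553 and 0.638 FPKM in LV-Vector libraries, with overlap (-0.11, adjusted p = 0.785, limma). LRP8-203 was measured at 4.31, 6.61 and 3.61 FPKM in LV-HOXD9 libraries, against 2.93, 4.96 and 4.74 FPKM in LV-Vector libraries (0.16, SE 0.264, adjusted p = 0.865, limma). This transcript scattered most and overlapped widely. LRP8-207 was measured at 3.31, 3.00 and 2.98 FPKM in LV-HOXD9 libraries, against 3.34, 4.0 and 3.49 FPKM in LV-Vector libraries (-0.17, adjusted p = 0.760, limma). The partial transcripts LRP8-208 and LRP8-206 had differences of -0.31 (adjusted p = 0.744, limma) and -0.10 (adjusted p = 0.802, limma). In LRP8-208 a low value of 1.61 FPKM in LV-HOXD9 replicate 2 stood apart from 3.04 and 3.00 FPKM in the other LV-HOXD9 libraries, against 3.20, 3.47 and 3.26 FPKM in LV-Vector libraries. For LRP8-201, LRP8-206, LRP8-207 and LRP8-208 the groups did not overlap, and the two-sided exact permutation test gave the smallest possible p of 0.1. Of all transcripts, 8.7% were lower and 6.71% higher in LV-HOXD9 cells without overlap. The gap was narrow for LRP8-206, whose highest LV-HOXD9 value was 0.601 FPKM, against a lowest LV-Vector value of 0.602 FPKM, and for LRP8-207. Without LV-HOXD9 replicate 3 and LV-Vector replicate 2 the difference of LRP8-203 was 0.42, those of LRP8-207 and LRP8-206 were -0.090 and -0.065, and 0 of the 6 transcripts were called (adjusted p = 0.814 to 0.928, limma).

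Transcripts with the 177-base exon took 41.8%, 36.0% and 44.4% of the summed FPKM of LRP8-201, LRP8-202, LRP8-203 and LRP8-207 in LV-HOXD9 libraries, against 48.5%, 42.9% and 44.1% in LV-Vector libraries. The shares overlapped, with means of 40.7 ± 4.30% in LV-HOXD9 cells and 45.2 ± 2.95% in LV-Vector cells (mean ± SD, n = 3 each). Transcripts that keep the exon and transcripts that lack it were both assigned FPKM in every library. Reads across the junctions of the exon were not examined, so the presence of both forms was not tested. Transcripts of a gene share reads, so these shares are estimates of the assembly and are given without a test.

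**Figure D3:**
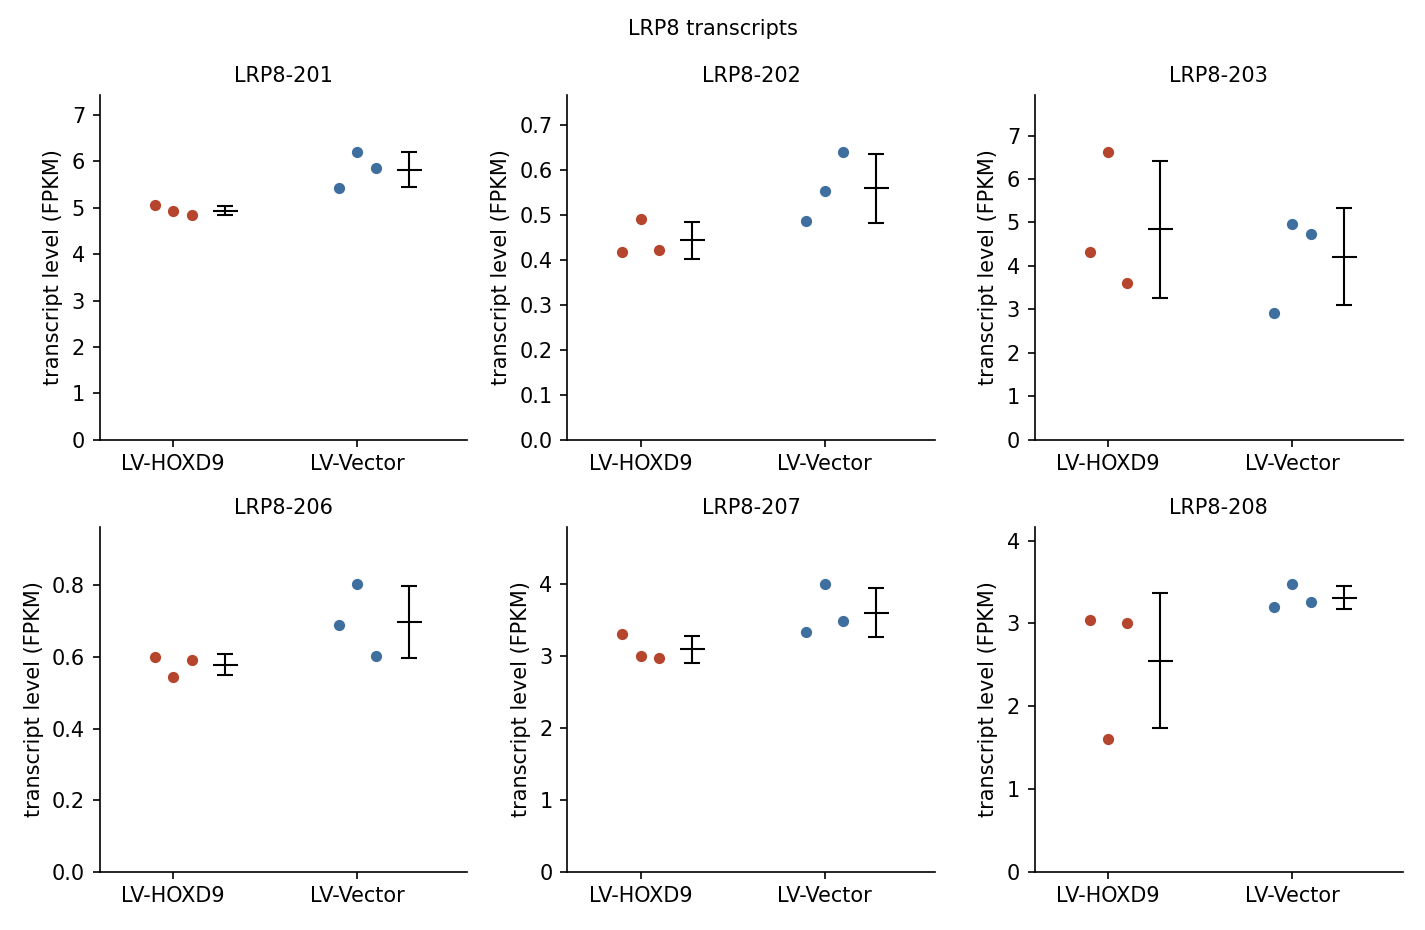
Levels in FPKM of the 6 LRP8 transcripts in LV-HOXD9 (red, left) and LV-Vector libraries (blue, right), with mean and SD of 3 libraries in black and an axis of its own in each panel. LRP8-201 lies at 4.85 to 5.05 FPKM in LV-HOXD9 and at 5.43 to 6.19 FPKM in LV-Vector, and LRP8-203 spans 3.61 to 6.61 FPKM in LV-HOXD9 and 2.93 to 4.96 FPKM in LV-Vector.

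A list of 100 genes of the reelin pathway, written with results of these data already known, had 78 genes in the table. RELN was left out of the counts, since it was chosen for its difference. Of the other 77 genes limma called 0 in either direction, beside the 0.202% called over all genes, and the ordinary linear model also called 0. At an unadjusted p under 0.05, 11 of the 77 were lower (11.9% of all genes) and 6 were higher (7.12% of all genes). By an unadjusted p under 0.05 of the ordinary linear model with a fold change over 1.2, 3 of the 77 were lower (4.6% of all genes) and 0 were higher (1.94% of all genes). The groups did not overlap for 16 genes that were lower in LV-HOXD9 cells and for 9 that were higher, beside 17.5% and 10.9% of all genes. The median difference of the 77 genes on the log2(FPKM + 1) scale was -0.055, against -0.044 over all genes. These shares and the median lay near those of the whole table. Without LV-HOXD9 replicate 3 and LV-Vector replicate 2 the median was -0.013, against -0.020 over all genes. In this fit limma again called 0, with 11 lower (8.36% of all genes) and 2 higher (5.84% of all genes) at an unadjusted p under 0.05.

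Among the ligands and secreted modulators, 4 genes beside RELN were measured. APOE, the lipoprotein ligand shared by LRP8 and VLDLR, was the highest of them, at 148, 147 and 164 FPKM in LV-HOXD9 libraries, against 192, 167 and 184 FPKM in LV-Vector libraries. The groups lay close without overlap, and the difference was -0.24 (SE 0.073, adjusted p = 0.192, limma). With trends in GC content and length removed it was -0.31 and passed the threshold (adjusted p = 0.0175, limma), which none of its other 14 alternatives did. CLU, clusterin, and THBS1, thrombospondin 1, both chosen after their values were seen, had differences of 0.13 (adjusted p = 0.379, limma) and 0.090 (adjusted p = 0.566, limma). The difference of CLU was 0.080 and that of THBS1 0.15 without LV-HOXD9 replicate 3.

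Of the proteases that cut reelin or its receptors, 9 of 14 were measured, 5 with a negative and 4 with a positive difference. Among all genes, 59.9% had a negative difference. ADAM17, a membrane protease that sheds receptor ectodomains, was measured at 8.80, 8.74 and 7.17 FPKM in LV-HOXD9 libraries, against 10.2, 10.8 and 10.3 FPKM in LV-Vector libraries. All LV-HOXD9 libraries were below all LV-Vector libraries, with a difference of -0.31 (SE 0.088, adjusted p = 0.180, limma). It was -0.16 with trends in GC content and length removed and -0.20 without LV-HOXD9 replicate 3 and LV-Vector replicate 2. APH1A, a subunit of γ-secretase, averaged 41.6 ± 5.06 FPKM in LV-HOXD9 cells and 41.0 ± 6.05 FPKM in LV-Vector cells. FURIN, the convertase that trims proproteins, averaged 35.8 ± 2.43 FPKM in LV-HOXD9 cells and 35.4 ± 3.11 FPKM in LV-Vector cells (mean ± SD, n = 3 each). For both the difference of 0.02 changed sign with the scaling (adjusted p = 0.925 for APH1A and 0.911 for FURIN, limma). The secreted reelin-cleaving proteases ADAMTS2, ADAMTS3, ADAMTS4 and ADAMTS5 were not analysed here.

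Of 23 receptors and coreceptors 18 were measured, 14 of them with a negative difference, beside 59.9% of all genes. LRP1, a large endocytic receptor of the same family as LRP8, was measured at 6.19, 6.24 and 6.50 FPKM in LV-HOXD9 libraries, against 7.96, 7.26 and 7.54 FPKM in LV-Vector libraries. The groups did not overlap, and the difference was -0.23 (SE 0.065, adjusted p = 0.180, limma). LRP6, a Wnt coreceptor of the family chosen after its values were seen, was measured at 10.4, 9.68 and 8.45 FPKM in LV-HOXD9 libraries, against 11.6, 13.0 and 10.9 FPKM in LV-Vector libraries (-0.29, adjusted p = 0.209, limma). This difference was -0.073 with trends in GC content and length removed and -0.15 without LV-HOXD9 replicate 3 and LV-Vector replicate 2. By level, LRP6 lay above LRP8 and LRP1 in every library, and LRP8 and LRP1 were neighbours whose FPKM ranges overlapped within each group. APP, which binds reelin and the receptor tails through shared adaptors, averaged 105 ± 7.06 FPKM in LV-HOXD9 cells and 101 ± 8.52 FPKM in LV-Vector cells (0.05, adjusted p = 0.719, limma), and its sign changed with the scaling. Its relative APLP2 averaged 58.9 ± 1.52 FPKM in LV-HOXD9 cells and 61.7 ± 1.59 FPKM in LV-Vector cells (-0.07, adjusted p = 0.480, limma), with differences of -0.13 on the TPM scale and -0.021 with trends in GC content and length removed.

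All 8 genes of receptor folding, sorting and turnover were measured, 5 with a positive and 3 with a negative difference. Of all genes, 59.9% had a negative one. UBE2M, a conjugating enzyme that attaches NEDD8 to cullins, averaged 108 ± 4.18 FPKM in LV-HOXD9 cells and 95.5 ± 7.33 FPKM in LV-Vector cells (mean ± SD, n = 3 each), a difference of 0.18 (adjusted p = 0.238, limma). LRPAP1, the chaperone of lipoprotein receptor family members, averaged 24.2 ± 1.24 FPKM in LV-HOXD9 cells and 22.4 ± 1.33 FPKM in LV-Vector cells, a difference of 0.11 (adjusted p = 0.406, limma). The differences were 0.10 for UBE2M and 0.020 for LRPAP1 without LV-HOXD9 replicate 3 and LV-Vector replicate 2. Of 7 adaptors 4 were measured. DAB2, an endocytic relative of DAB1, averaged 17.0 ± 1.15 FPKM in LV-HOXD9 cells and 16.5 ± 0.434 FPKM in LV-Vector cells (0.03, adjusted p = 0.795, limma), with a sign that changed on the TPM scale.

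Of the kinases and exchange factors of the signal 22 of 24 were measured. YES1, a Src-family kinase, was measured at 12.9, 12.7 and 11.5 FPKM in LV-HOXD9 libraries, against 18.0, 23.5 and 19.4 FPKM in LV-Vector libraries. The groups were clearly separated, and the difference of -0.67 (SE 0.104, 95% interval -0.91 to -0.42) had the smallest p of the 77 genes, yet did not pass the threshold (adjusted p = 0.0805, limma). With trends in GC content and length removed the difference was -0.47 and passed it (adjusted p = 0.0229, limma). SRC, chosen after its values were seen, was measured at 7.65, 7.34 and 7.37 FPKM in LV-HOXD9 libraries, against 9.71, 8.0 and 8.83 FPKM in LV-Vector libraries (-0.22, adjusted p = 0.233, limma). FYN was not analysed here.

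DOCK1, an exchange factor for RAC that works with CRK adaptors, was measured at 13.3, 13.5 and 11.8 FPKM in LV-HOXD9 libraries, against 15.2, 16.5 and 15.6 FPKM in LV-Vector libraries. Its groups did not overlap (-0.28, SE 0.072, adjusted p = 0.165, limma). CRKL, an adaptor that binds phosphorylated DAB1, averaged 31.5 ± 1.33 FPKM in LV-HOXD9 cells and 31.5 ± 0.592 FPKM in LV-Vector cells (adjusted p = 0.99, limma), with a sign that changed between fits. The downstream kinases showed values on both sides of 0. GSK3A averaged 26.2 ± 1.04 FPKM in LV-HOXD9 cells and 22.8 ± 1.55 FPKM in LV-Vector cells (0.19, adjusted p = 0.220, limma). GSK3B and AKT1, chosen after their values were seen, had differences of -0.20 (adjusted p = 0.253, limma) and 0.18 (adjusted p = 0.231, limma). The difference of GSK3B was -0.13 without LV-HOXD9 replicate 3 and -0.018 with trends in GC content and length removed. Without LV-HOXD9 replicate 3 and LV-Vector replicate 2 it was -0.092, and that of GSK3A was 0.11.

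NCK2, an SH2 and SH3 adaptor that links DAB1 to the actin machinery, was also chosen after its values were seen, because 1 library decided them. It was measured at 5.09, 13.1 and 14.3 FPKM in LV-HOXD9 libraries, against 5.30, 4.72 and 4.41 FPKM in LV-Vector libraries. LV-HOXD9 replicates 2 and 3 were high, whereas replicate 1 lay among the LV-Vector libraries. The difference was 0.92 (SE 0.333, adjusted p = 0.223, limma), and without LV-HOXD9 replicate 1 it was 1.34 (adjusted p = 0.0292, limma).

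The cytoskeletal and dynein genes at the end of the pathway were measured for 12 of 15. They had 6 differences on each side of 0 and a median of -0.0047. Over all genes 59.9% of differences were negative, with a median of -0.044. CFL1, the actin-severing protein cofilin, averaged 50.0 ± 4.25 FPKM in LV-HOXD9 cells and 43.5 ± 2.98 FPKM in LV-Vector cells, a difference of 0.20 (adjusted p = 0.261, limma) that was 0.086 without LV-HOXD9 replicate 3 and LV-Vector replicate 2. PAFAH1B3, a partner of the dynein regulator PAFAH1B1 (LIS1), averaged 42.5 ± 2.56 FPKM in LV-HOXD9 cells and 43.9 ± 4.45 FPKM in LV-Vector cells (mean ± SD, n = 3 each), a difference of -0.04 (adjusted p = 0.794, limma) whose sign changed when single libraries were left out.

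**Figure D4:**
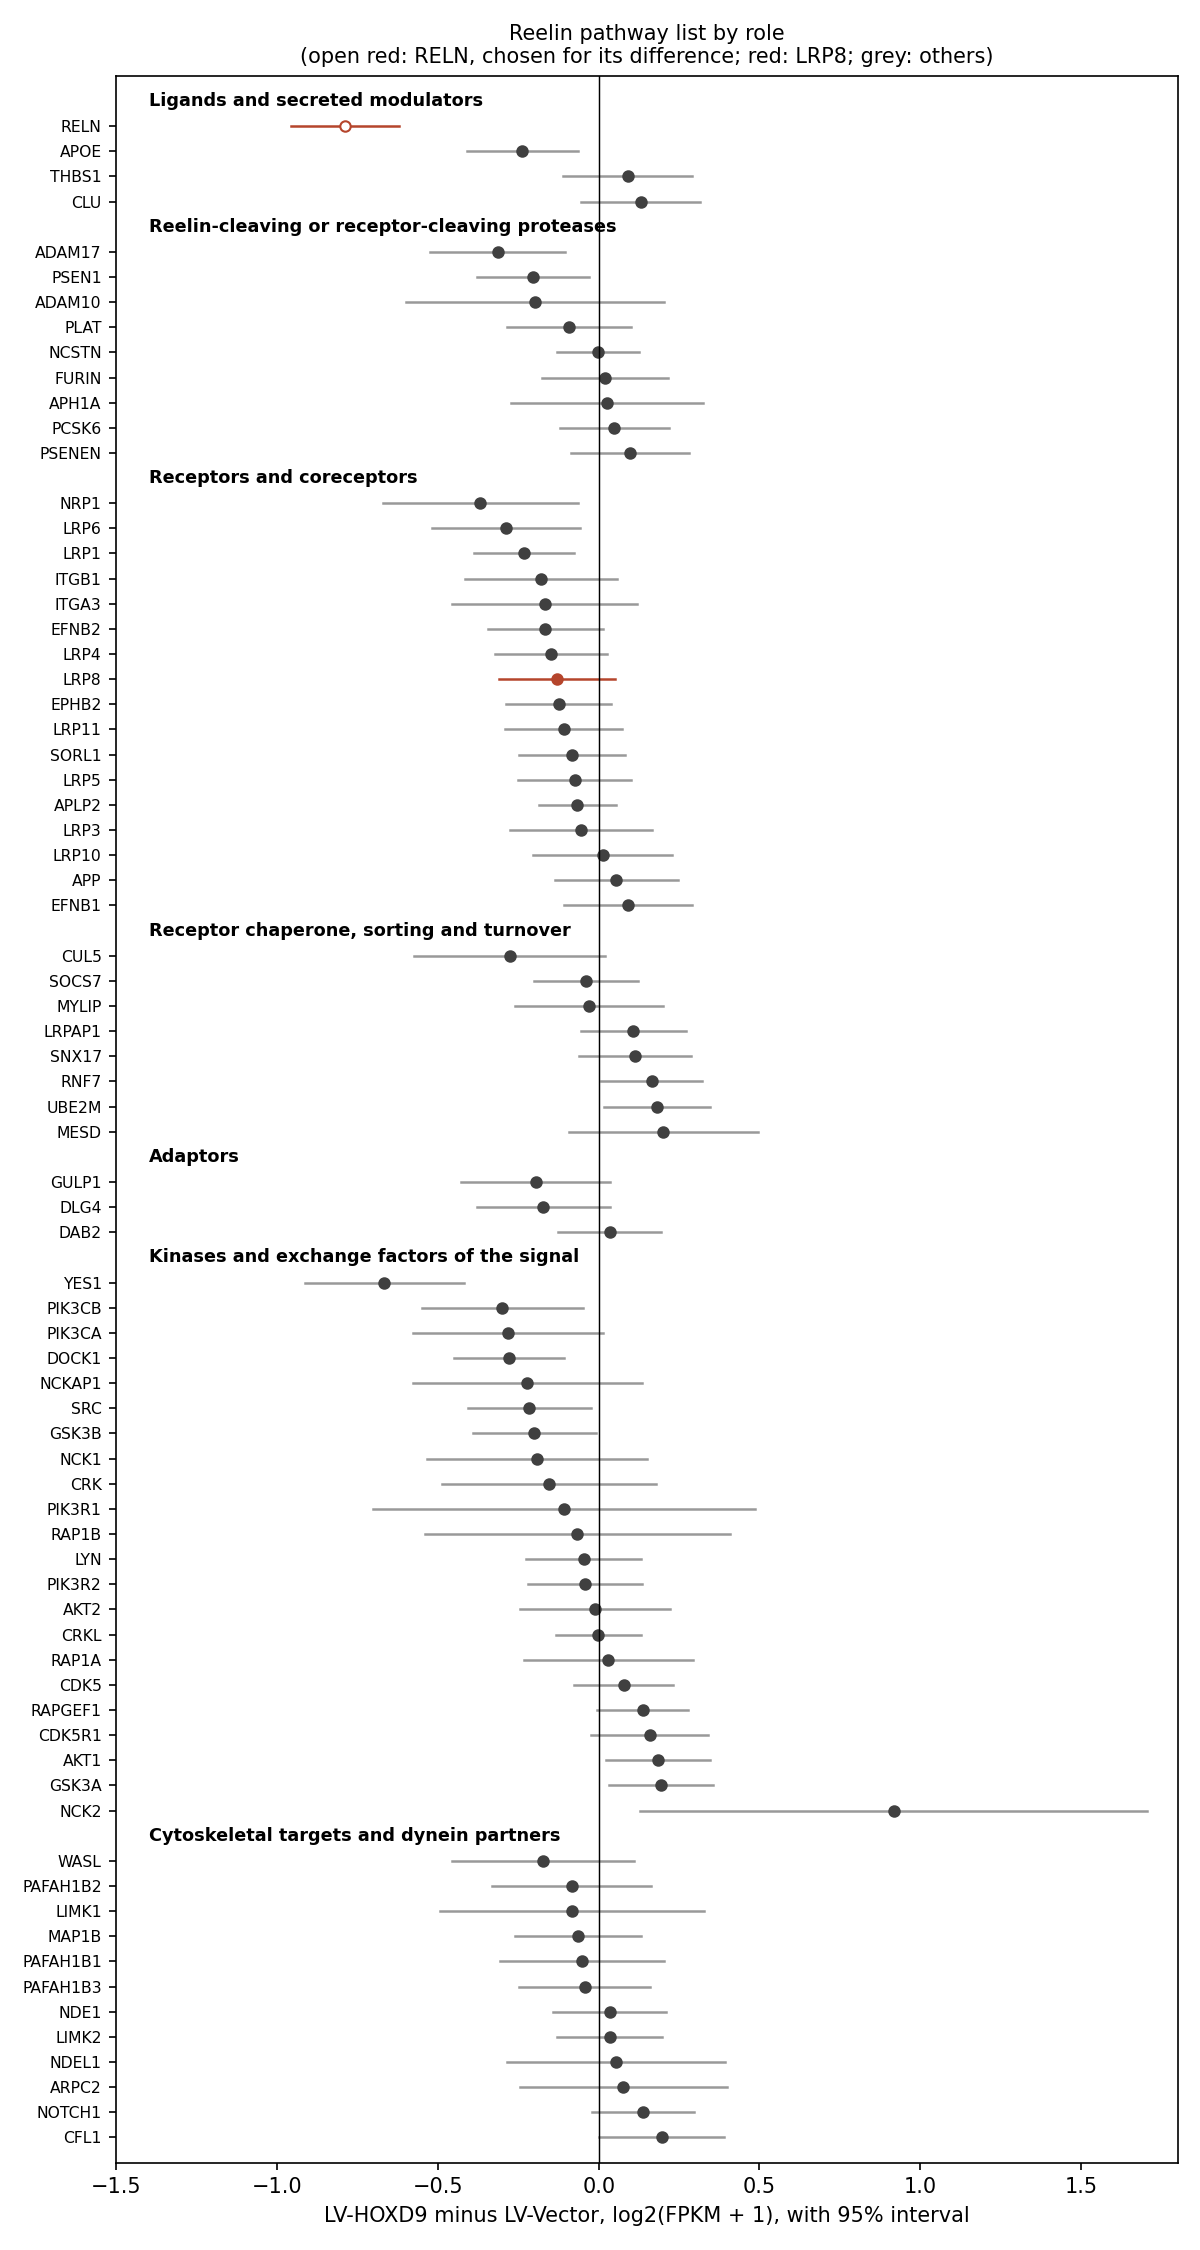
Differences (LV-HOXD9 minus LV-Vector, log2(FPKM + 1)) with 95% intervals for 75 of the 78 measured genes of the reelin pathway list, grouped by role. RELN at -0.79 (open red) was chosen for its difference, so its interval is not a test. LRP8 lies at -0.13 (red), and YES1 at -0.67 and NCK2 at 0.92 are the outermost of the other genes (grey).

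**Figure D5:**
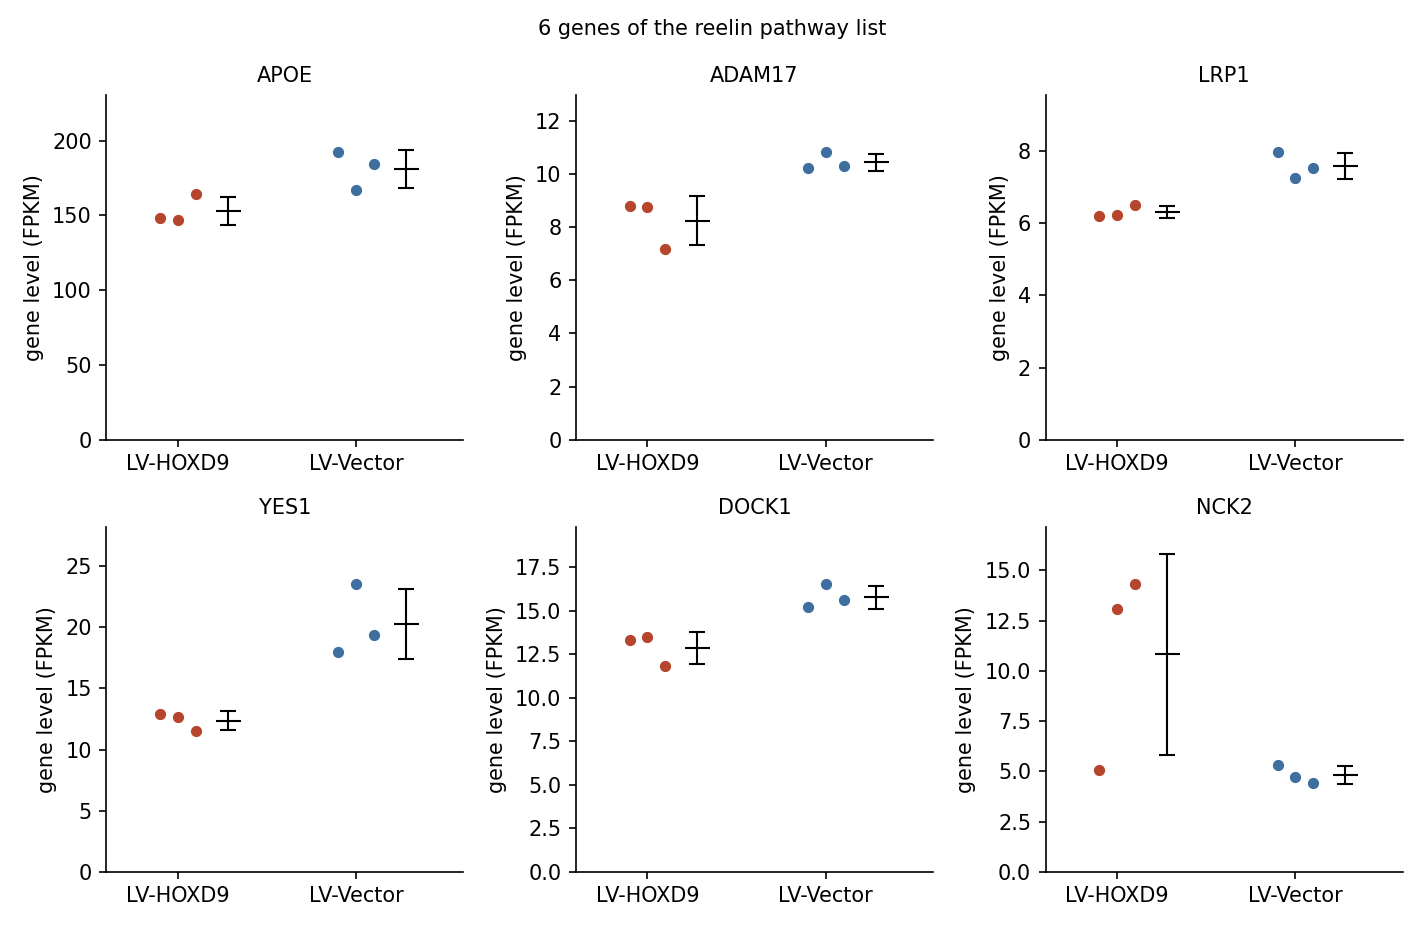
Gene levels in FPKM of APOE, ADAM17, LRP1, YES1, DOCK1 and NCK2 in LV-HOXD9 (red, left) and LV-Vector libraries (blue, right), with mean and SD of 3 libraries in black. The groups do not overlap for the first 5 genes, and in NCK2 LV-HOXD9 replicate 1 at 5.09 FPKM lies among the LV-Vector libraries.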

How the data were processed

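Total RNA of MKN-74 cells was sequenced with a stranded kit in 3 LV-HOXD9 and 3 LV-Vector libraries. The submitters' processing notes name cutadapt, FastQC, HISAT2, StringTie and the build GRCh37, with no versions. The authors computed the deposited FPKM values with Ballgown, and another scaling of the libraries is not stated. The tables were already filtered when analysed: the higher group mean of a gene was never under 0.5 FPKM. Totals were 256588 to 270501 FPKM in LV-HOXD9 and 242093 to 257015 FPKM in LV-Vector libraries. Read counts were not used here.

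Values were compared as log2(FPKM + 1) with limma 3.58.1 (R 4.3.3, moderated variances with a trend), adjusted by Benjamini-Hochberg over all genes or all transcripts (threshold 0.05). Genes needed a mean of 0.1 FPKM, which removed 0 of them. The limma fit was tested on simulated data. RELN and its transcripts were not tested. Other single rows were also compared by an exact permutation test (scipy 1.17.1). Sequences and exons came from GENCODE release 29 (GRCh38) and promoters from RefSeq, where RELN and LRP8 were matched by symbol, and their coordinates were kept apart from those of the files. Python 3.11.15, pandas 2.3.3 and matplotlib 3.10.9 were used.

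The 4 genes, the pathway list and the marker lists were chosen with earlier results of these data known. Named were HOXD9, the members, list genes with an unadjusted p under 0.01, the 2 highest genes of each role, the 5 genes most like RELN and its nearest measured neighbours. Some genes of this rule and of the lists are not reported here. Genes named beside this rule are marked as chosen after their values were seen. Alternatives were a replicate block, quantile normalization, a pseudocount of 0.1, a TPM scale, other minimum levels, an ordinary linear model, leaving out each library, and loess removal (span 0.5) of trends with GC content and length, known for 97.3% of genes. Genes past the criterion of the study (fold change over 1.2, unadjusted p under 0.05) were counted too.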

Additional observations from a re-analysis of the deposited data

How the results depend on the processing

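The difference of RELN kept its direction in all 15 alternatives. It was -1.04 with a pseudocount of 0.1, -1.05 on the TPM scale, -0.70 after quantile normalization and -0.66 with trends in GC content and length removed, and -0.82 to -0.76 when single libraries were left out. RELN-202 had -1.22 with a pseudocount of 0.1 and -1.12 on the TPM scale (the TPM scale for transcripts was chosen after seeing the data). LRP8 stayed negative and above the threshold in all 15 alternatives (adjusted p = 0.254 to 0.839, limma). Among the 77 list genes other than RELN, the count called lower, 0, was 2 with trends in GC content and length removed (APOE and YES1) and 3 by the criterion of the study, and 0 when single libraries were left out or without both LV-HOXD9 replicate 3 and LV-Vector replicate 2 (chosen after seeing the data). The count called higher, 0, was 0 to 1 when single libraries were left out, with NCK2 called without LV-HOXD9 replicate 1. Samples of the same replicate number did not deviate together (r = -0.173, 0.168 and -0.00641). These deviations also carry the GC trends of single libraries, so the correlations cannot exclude a pairing by number. With the replicate number as a block both counts were 0, and the differences of RELN and LRP8 stayed -0.79 and -0.13.

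Named genes near 0 changed sign, and the cause was not tested. APH1A gave -0.039 on the TPM scale, -0.019 after quantile normalization, -0.014 with GC and length trends removed, -0.097 without the 2 libraries and -0.056 to 0.14 without single ones. FURIN gave -0.044 on the TPM scale, -0.025 after quantile normalization, -0.099 without the 2 libraries and -0.045 to 0.079 without single ones. APP gave -0.0092 on the TPM scale and -0.034 after quantile normalization. DAB2 gave -0.028 on the TPM scale and -0.0063 to 0.085 without single libraries. CRKL gave 0.025 without the 2 libraries, 0.064 with GC and length trends removed and -0.020 to 0.033 without single ones. PAFAH1B3 ranged over -0.090 to 0.037 without single libraries. PSMC2 gave 0.056 without the 2 libraries, 0.064 with GC and length trends removed and -0.066 to 0.034 without single ones. The alternatives for VLDLR and DAB1 were not run, since these genes were not analysed here. The number of libraries, 3 a group, and the unknown depth limit what could be detected.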
